A study of Mus musculus with 4 samples.

Results

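The fibroblast growth factor (FGF) genes described here were 9 genes of the FGF axis, taken by name from the 28649 genes of the deposited count table: the ligands Fgf2, Fgf7 and Fgf10, the receptors Fgfr1, Fgfr2 and Fgfr3, and the Sprouty feedback genes Spry1, Spry2 and Spry4. They were measured by RNA-seq in cultured fibro-adipogenic progenitors (FAPs), mesenchymal cells sorted as Sca1+ from mouse skeletal muscle, with 2 libraries from miR-206 KO mice and 2 from wild-type C57Bl/6 mice. Cells of both genotypes were grown in DMEM with 20% FBS, 10% HS and FGF at 5 ng/ml, and then held for 48 hours in DMEM with 10% HS, a medium for which the labels list no FGF. The labels do not give the strain background of the KO mice, their age, or how the replicates of a genotype relate to each other. A difference of strain and the deletion therefore cannot be told apart, and each p-value speaks for the spread among these 4 libraries, which may be technical. Genotype was taken from the labels alone, since Mir206 is not analysed here.

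FGF ligands bind receptor tyrosine kinases on the cell surface together with heparan sulfate, and the activated receptor signals through the adaptor Frs2 to Ras and the ERK kinases. Sprouty proteins are inhibitors of that route which the route itself induces, so their transcripts are often read as a trace of FGF-ERK activity. In mesenchymal cells FGF signalling is known for its part in proliferation and in the choice between progenitor and adipocyte fates, and miR-206 is a muscle microRNA of the miR-1 family.

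The mature miR-206 strand and the matches to its seed in these genes are shown because the deleted microRNA acts through such matches. The RefSeq sequence of the mature strand (GRCm38.p6, plus strand, chr1:20679055-20679076) has its seed, bases 2 to 8, in capitals. The 2 lines after it are stretches of 3' UTR from GENCODE M21 transcripts (GRCm38, the same assembly as the mm10 build named by the submitters), with the match in capitals.
mmu-miR-206-3p: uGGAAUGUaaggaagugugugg
Fgf2 3' UTR, 8mer match: tcatgatggcaACATTCCAaaattttattt
Spry1 3' UTR, 7mer match: cagcttgttctCATTCCAcctcgagggtt

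Matches were searched on the transcript strand as the 8mer ACATTCCA and the 7mers ACATTCC and CATTCCA, a 7mer inside an 8mer being counted once. The Fgf2 stretch lies at chr3:37407809-37407838 on the plus strand, in the longest annotated Fgf2 3' UTR of 5311 bases, and the Spry1 stretch at chr3:37643687-37643715 on the plus strand. Spry4, on chromosome 18, held 1 7mer match in a 3' UTR of 3559 bases. The longest 3' UTRs of Fgf7, Fgf10, Fgfr1, Fgfr2, Fgfr3 and Spry2 held 0 matches. The background was 20.2% for a match of any of these kinds and 4.74% for an 8mer, over the 13520 tested genes that have a 3' UTR in the annotation. It was not matched for length, the median 3' UTR being 1372 bases over those genes and 1797 bases over the 9 members. A match is a description of the letters only.

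Total estimated counts ran from 30550235 to 44561117 per library. FAP markers were high in every library, with the 8 listed markers summing to between 6087 and 7192 TPM (transcript abundance scaled by depth and transcript length). Both KO libraries lay above both wild-type libraries in 4 of the 8 and below them in 2, where the shares over all tested genes were 23.8% and 24.4%. The 2 lower ones were Dpt and Ly6a, the latter with 1379 and 1597 TPM in KO and 1908 and 2696 TPM in wild type. Markers of other cells were also present. The 6 adipocyte markers summed to 121 and 67.5 TPM in KO replicates 1 and 2 and to 650 and 266 TPM in wild type replicates 1 and 2. The 8 muscle cell markers summed to 986, 118, 1873 and 1099 TPM in the same order, so KO replicate 2 stood apart by its low muscle signal. The 5 blood cell, 5 endothelial, 6 epithelial and 4 glial markers summed to between 0.553 and 6.44 TPM, and the 5 pericyte and smooth muscle markers to between 21.6 and 44.8 TPM. Among the epithelial markers Krt5 and Krt14 were listed at 0 in every library, as was Adgre1 among the blood cell markers.

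None of the 9 FGF genes passed the test between genotypes. All 9 passed the low-count filter and were among 14507 genes tested by edgeR's quasi-likelihood test, in which 0.427% of genes were called at a Benjamini-Hochberg adjusted p under 0.05. The count of 0 of 9 was the same by DESeq2, by limma-voom and under each other setting tried. At an unadjusted edgeR p under 0.05 there was 1 of the 9, Spry4, where 14.3% of all tested genes stood under that mark. The groups did not overlap for 3 of the 9 genes, where 48.2% of all tested genes had no overlap. The median log2 fold change of KO over wild type was -0.07 over the 9 genes and -0.00 over all tested genes.

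**Figure D1:**
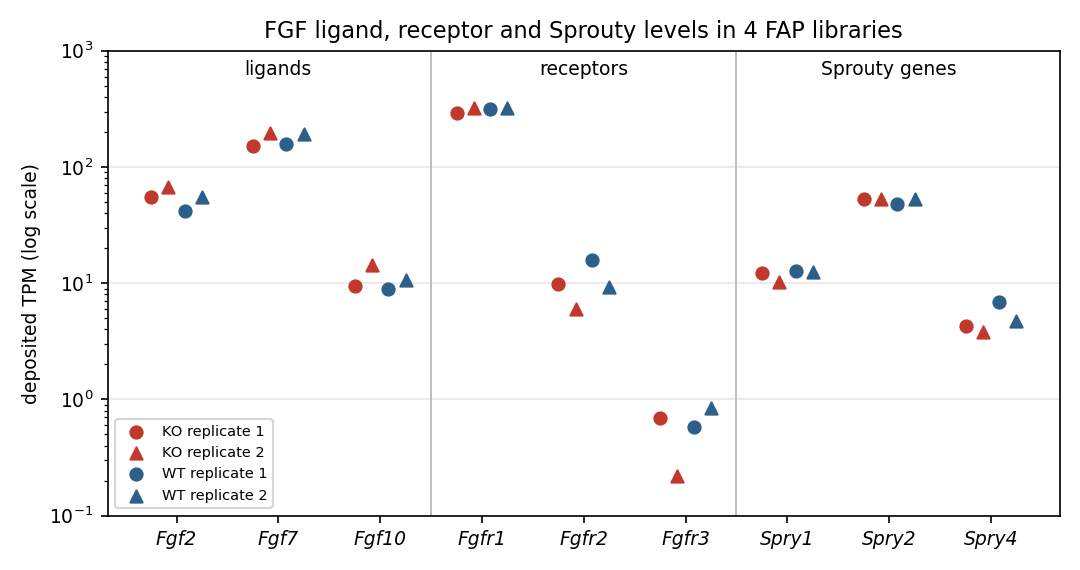
Deposited TPM of the 9 genes on a log scale, with 1 point per library (red, miR-206 KO; blue, wild type; circles, replicate 1; triangles, replicate 2). Fgfr1 sits at the top in every library, between 292 and 323 TPM, and Fgfr3 at the bottom, between 0.220 and 0.842 TPM.

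By TPM, the scale on which genes can be set side by side, the order of levels was led by Fgfr1 (292 to 323 TPM) and Fgf7 (152 to 194 TPM), each clear of its neighbours. Fgf2 (42.0 to 67.8 TPM) and Spry2 (47.8 to 53.4 TPM) came next and overlapped. Spry1 (10.3 to 12.6 TPM), Fgf10 (8.97 to 14.2 TPM) and Fgfr2 (5.95 to 15.9 TPM) could not be ordered beyond their spread. Spry4 (3.81 to 6.88 TPM) overlapped the lowest Fgfr2 library, and Fgfr3 (0.220 to 0.842 TPM) lay below all of them. By TPM, the FAP cultures of both genotypes carried high levels of Fgfr1 and Fgf7 and mid levels of Fgf2 and Spry2.

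Among the 3 member ligands, Fgf2 had the widest gap between genotypes relative to its spread. Fgf2, the basic FGF that is widely used to expand progenitor cells, is encoded on the plus strand of chromosome 3 (37348346 to 37410108). It had 19.6 and 21.0 CPM (read counts scaled by the composition-adjusted depth of the library) in KO replicates 1 and 2 and 14.6 and 18.5 CPM in wild type replicates 1 and 2. Both KO libraries lay above both wild-type libraries, as they did for 23.8% of all tested genes, with means of 20.3 ± 1.05 and 16.5 ± 2.74 CPM (SD, n = 2 each). KO over wild type, the log2 fold change of Fgf2 was 0.30 (SE 0.14, 95% interval -0.05 to 0.64, edgeR quasi-likelihood adjusted p = 0.42), so the difference did not pass the test. Without wild type replicate 1 it was 0.14, and without wild type replicate 2 it was 0.48.

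The Fgf2 locus has an antisense partner, Nudt6, a nudix hydrolase gene on the opposite strand from 37404910 to 37420211. Exons of the 2 genes share 640 bases, which are 9.44% of the exon bases of Fgf2 and 38.2% of those of Nudt6. Nudt6 had 37.0 and 37.7 CPM in KO and 24.8 and 30.0 CPM in wild type, again with both KO libraries above both wild-type libraries. Its log2 fold change was 0.45 (SE 0.11, edgeR adjusted p = 0.149), and with no low-count filter it was called (edgeR adjusted p = 0.0375). The ratio of Fgf2 to Nudt6 counts was 0.528 and 0.558 in KO and 0.587 and 0.616 in wild type. The kit marks strand, but the use of strand in counting is not given in the sources used here, so reads of the shared bases cannot be assigned to 1 of the 2 genes with certainty.

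The ratio of counts to TPM gives a mean transcript length that is weighted by TPM and not by reads. Calibrated on 821 genes with a single annotated protein-coding transcript, the implied mean transcript length of Fgf2 was 531 to 586 bases in the 4 libraries, where its 8 annotated transcripts run from 257 to 5973 bases. The transcript of 5973 bases is the one that holds the 8mer match, and none of the 7 shorter annotated transcripts covers that site. A transcript this long can hold many of the reads at a low share of the TPM. The implied length therefore does not show how many reads were assigned to it. The short implied length also raises the TPM of Fgf2 relative to its counts, so the place of Fgf2 in the order of levels rests on that length. Nudt6 had an implied length of 504 to 523 bases, near the short end of its annotated range of 378 to 1264 bases. All calibration transcripts were longer than the values of Fgf2 and Nudt6, so the scale was not checked at such lengths.

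**Figure D2:**
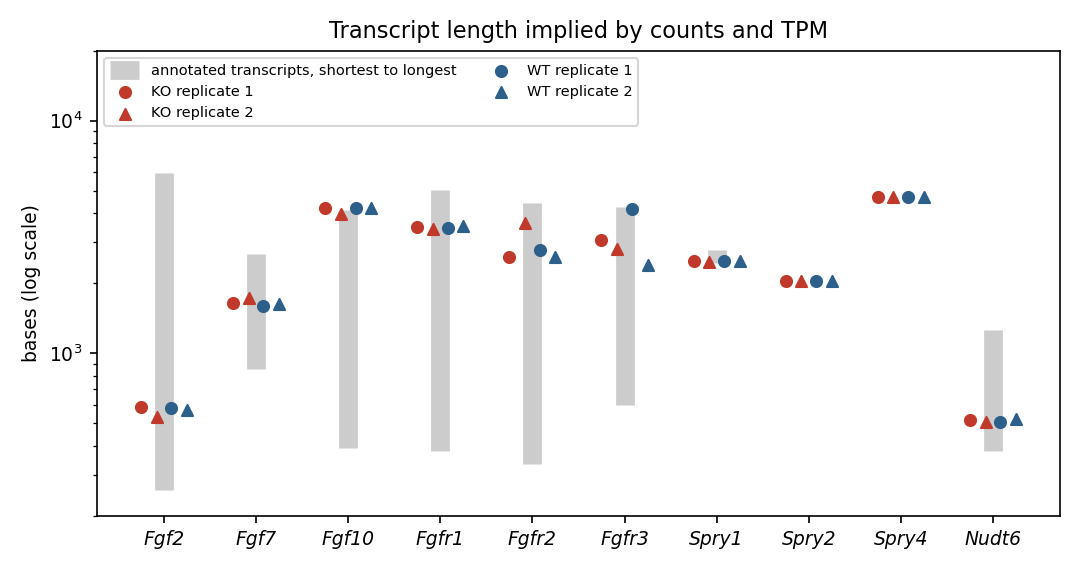
Transcript length implied by the ratio of counts to TPM, in bases on a log scale, for the 9 genes and Nudt6 (points, 1 per library; grey bars, shortest to longest annotated transcript). Fgf2 sits between 531 and 586 bases, far below its longest transcript of 5973 bases, while Spry2 and Spry4, with 1 annotated transcript each, sit close to that transcript's length (2087 and 4755 bases) and have no bar to show.

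Fgf7, the keratinocyte growth factor, is made by mesenchymal cells and acts on epithelial cells. It lies on chromosome 2 from 126034658 to 126091185. It had 150 and 197 CPM in KO and 149 and 183 CPM in wild type, so the spread within each genotype was far wider than the gap between their means of 173 ± 33.5 and 166 ± 23.8 CPM (SD, n = 2 each). The log2 fold change was 0.06 (SE 0.18, 95% interval -0.41 to 0.53, edgeR adjusted p = 0.913). Its sign was negative by TPM. Leaving out KO replicate 2 gave -0.15, wild type replicate 1 -0.08 and KO replicate 1 0.25. In both genotypes replicate 2 was the higher library. The implied transcript length of Fgf7 was 1592 to 1736 bases. Its protein-coding transcripts have 2287 and 2672 bases, and a processed transcript annotated as not protein-coding has 853 bases. The TPM of Fgf7, and its share of the ligand TPM, therefore rest on that length and may include the processed transcript.

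Fgf10, a relative of Fgf7 that supports fat and lung development in mice, lies on chromosome 13 from 118669791 to 118792115. It had 24.0 and 33.0 CPM in KO and 22.4 and 26.5 CPM in wild type. The groups overlapped, with KO replicate 2 the highest library and wild type replicate 1 the lowest. For Fgf10 the log2 fold change was 0.22 (SE 0.18, 95% interval -0.23 to 0.67, edgeR adjusted p = 0.636), -0.02 without KO replicate 2 and 0.43 without KO replicate 1. Over the 18 secreted FGF ligand genes searched, Fgf7 made up 56.3% and 63.2% of the summed ligand TPM in KO and 59.3% and 62.5% in wild type, and Fgf2 made up 20.6% and 22.0% against 15.8% and 18.1%. Fgf21 made up 8.86% and 1.14% in KO and 16.0% and 9.34% in wild type, and Fgf18 9.92% and 8.03% against 4.50% and 5.29%.

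Among the receptors, Fgfr1 was the main one in both genotypes. Fgfr1, the receptor that is typical of mesenchymal cells and preadipocytes, lies on chromosome 8 from 25513654 to 25575718. It had 615 and 645 CPM in KO and 648 and 670 CPM in wild type. The KO pair lay under the wild-type pair in CPM, as it did for 24.4% of all tested genes, but by a narrow margin, and in TPM the groups overlapped (292 and 323 against 317 and 323). The log2 fold change was -0.07 (SE 0.08, 95% interval -0.25 to 0.12, edgeR adjusted p = 0.757), the narrowest interval of the receptors. Fgfr1 made up 96.4% and 98.1% of the summed TPM of Fgfr1, Fgfr2, Fgfr3 and Fgfr4 in KO and 94.8% and 96.8% in wild type.

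Fgfr2, whose splice forms bind different ligands in epithelial and mesenchymal cells, lies on chromosome 7 from 130162451 to 133123350 on the minus strand. It had 15.3 and 12.6 CPM in KO and 26.2 and 14.3 CPM in wild type. Wild type replicate 1 stood above the other 3 libraries, and KO replicate 1 lay above wild type replicate 2, so the groups overlapped. For Fgfr2 the log2 fold change was -0.53 (SE 0.34, 95% interval -1.46 to 0.39, edgeR adjusted p = 0.561). It was -0.04 without wild type replicate 1, -0.91 without wild type replicate 2 and -0.68 without KO replicate 1. The authors' deposited table gives -0.68 for Fgfr2 from mean TPM. The implied transcript length, a mean weighted by TPM, was 3623 bases in KO replicate 2 and 2601 to 2773 bases in the other libraries. In KO replicate 2 that mean leaned to longer models of this gene, which has 27 annotated transcripts. Gene-level values do not separate the epithelial from the mesenchymal splice form.

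Fgfr3, a receptor best known as a brake on cartilage growth, lies on chromosome 5 from 33721674 to 33737068. It was near the limit of what these libraries measure, with 44 and 11 estimated counts in KO and 51 and 53.0 in wild type. On the CPM scale that was 1.27 and 0.360 against 1.43 and 1.19, so KO replicate 2 was low and KO replicate 1 lay between the wild-type libraries. Fgfr3 had a log2 fold change of -0.67 (SE 0.65, 95% interval -2.23 to 0.89, edgeR adjusted p = 0.696), -1.85 without KO replicate 1 and -0.03 without KO replicate 2. The interval spans a fall and a rise, and the KO replicates differed from each other more than the genotype means did. Fgfr4, the receptor of muscle progenitors, also had few counts, with 9 and 2 in KO and 19 and 18 in wild type.

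Among the Sprouty genes, Spry2 had the most transcripts. It lies on chromosome 14 from 105891947 to 105896819 on the minus strand and had 65.8 and 63.6 CPM in KO and 58.3 and 63.7 CPM in wild type. In CPM the groups overlapped, with KO replicate 2 just below wild type replicate 2, while in TPM both KO libraries (53.4 and 53.2) lay above both wild-type libraries (47.8 and 52.8). Spry2 had a log2 fold change of 0.09 (SE 0.08, 95% interval -0.10 to 0.27, edgeR adjusted p = 0.665), the narrowest interval of the 9 genes. Spry2 made up 74.9% and 77.5% of the summed TPM of Spry1, Spry2, Spry3 and Spry4 in KO and 70.2% and 74.5% in wild type.

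Spry1, the Sprouty gene known for keeping muscle satellite cells quiescent, lies on chromosome 3 from 37639947 to 37644598, with 229838 bases between the end of Fgf2 and its start. It had 18.5 and 14.9 CPM in KO and 18.8 and 18.3 CPM in wild type, so KO replicate 2 was low and the other 3 libraries were alike. The log2 fold change was -0.15 (SE 0.14, 95% interval -0.48 to 0.18, edgeR adjusted p = 0.672), -0.00 without KO replicate 2 and -0.32 without KO replicate 1.

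Spry4, the feedback inhibitor with the lowest TPM of the 3 Sprouty genes, lies on chromosome 18 from 38586247 to 38601415 on the minus strand. It had 12.0 and 10.5 CPM in KO and 19.3 and 13.1 CPM in wild type. The KO pair lay under the wild-type pair, and the wild-type libraries were farther from each other than wild type replicate 2 was from KO replicate 1. Spry4 had a log2 fold change of -0.52 (SE 0.21, 95% interval -1.04 to -0.01), with an unadjusted edgeR p of 0.0479 and an adjusted p of 0.342. Leaving out wild type replicate 1 gave -0.22, and leaving out wild type replicate 2 gave -0.78. Among 10913 other tested genes of at least 5 mean CPM, the profiles nearest to that of Spry4, by Euclidean distance of centred log2 CPM over the 4 libraries, were those of Hmgb3, Fitm2 and Wfs1, at distances of 0.05, 0.08 and 0.09. The summed TPM of the 4 Sprouty genes was 71.2 and 68.6 in KO and 68.2 and 70.9 in wild type, with overlapping groups.

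**Figure D3:**
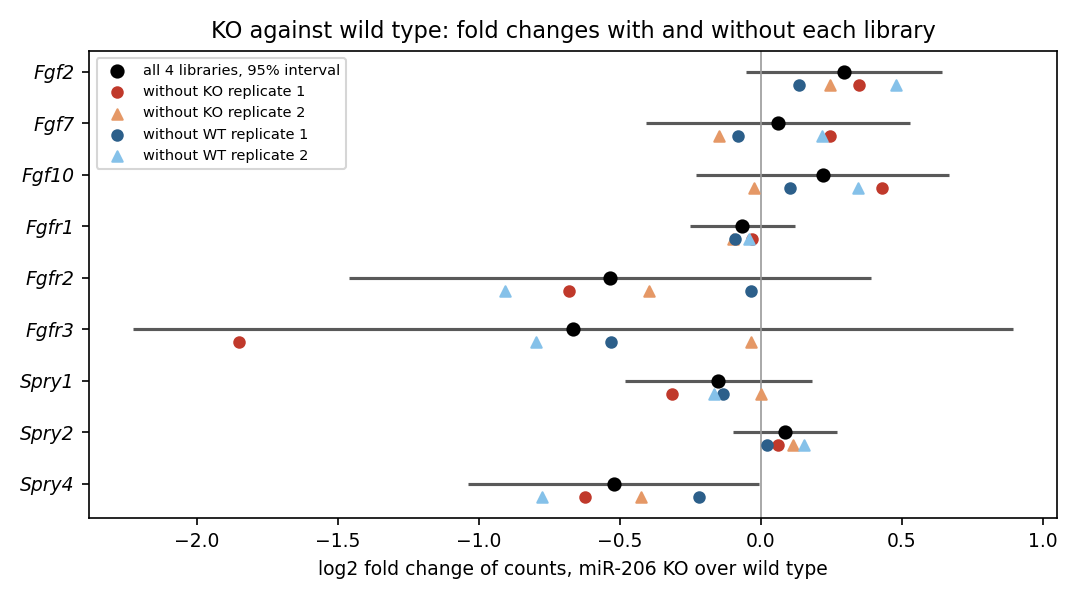
Log2 fold change of counts, KO over wild type, for the 9 genes (black, all 4 libraries with the 95% interval; coloured points, each library left out in turn). The intervals of 8 genes cross 0, that of Spry4 ends at -0.01, and the points of Fgf7 and Fgf10 fall on both sides of 0.

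The order of the libraries in Spry4 was that of the adipocyte, muscle cell and epithelial marker sums, which all had the same order. It was not that of the pericyte and smooth muscle, blood cell, endothelial or glial sums. How many of all tested genes had that order was not counted. In 24.4% of them both KO libraries lay below both wild-type libraries, so such a match is not particular to Spry4. The epithelial sum was low, with 2.70 and 0.980 TPM in wild type replicates 1 and 2 and 0.738 and 0.553 TPM in KO replicates 1 and 2. Only 1 of its 6 markers was tested. Spry4 was highest in wild type replicate 1, then in wild type replicate 2, KO replicate 1 and KO replicate 2, and so were the adipocyte and muscle cell sums, while the pericyte and smooth muscle sum was highest in KO replicate 2 (44.8 TPM) and lowest in wild type replicate 1 (21.6 TPM). Fgfr2 shared the highest and the lowest library with them. In all 5 tested adipocyte markers and in 4 of the 6 tested muscle cell markers the KO group lay wholly under the wild-type group. The share over all tested genes was 24.4%. Of these markers edgeR called Cidec alone (adjusted p = 0.0468), and the others had an edgeR adjusted p of 0.319 or more. The part of these cells in the values of Spry4 and Fgfr2 was not tested. In bulk RNA, fewer cells of a type and less RNA per cell cannot be told apart.

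**Figure D4:**
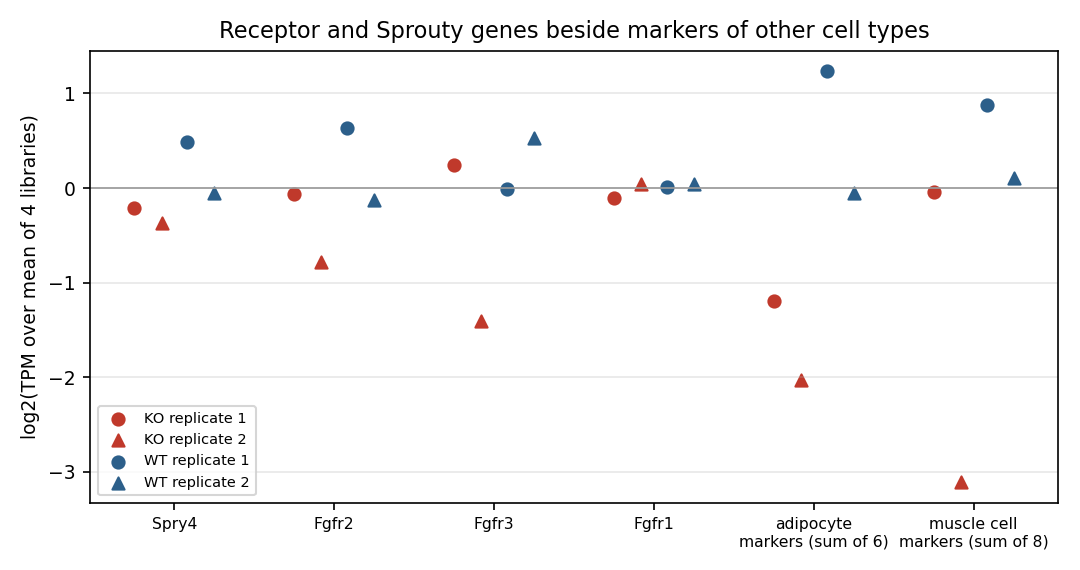
Log2 of TPM over the mean of the 4 libraries, for Spry4, 3 receptors and the marker sums of adipocytes and muscle cells (red, KO; blue, wild type; circles, replicate 1; triangles, replicate 2). Wild type replicate 1 is highest and KO replicate 2 lowest for Spry4, Fgfr2 and both marker sums, while Fgfr1 lies near 0 in every library.

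The wider pathway was read from 81 further genes in 7 lists, of which 70 were tested. Of these 70 genes, edgeR's quasi-likelihood test called 0 higher and 1 lower in KO, against 0.241% and 0.186% of all tested genes. At an unadjusted edgeR p under 0.05 there were 10 higher and 9 lower, against 7.16% and 7.18% of all tested genes. These shares, 14.3% for either direction, are also the background for the counts of each list below. DESeq2 called 9 of them and edgeR with no low-count filter called 8, among them Fgf18, Fgf13, Flrt2, Fgfbp1, Sdc4, Sulf1 and Spred1. Over all genes, DESeq2 called 663 and edgeR with no low-count filter called 491, of 19942 genes tested by each. The median log2 fold change of the 70 was -0.02. The called gene was Gpc6, which encodes glypican 6, a cell-surface carrier of heparan sulfate. It had 148 and 161 CPM in KO and 237 and 225 CPM in wild type, clearly apart. Its log2 fold change was -0.58 (SE 0.08, edgeR quasi-likelihood adjusted p = 0.0449). The call was lost when any 1 of the 4 libraries was left out, the edgeR adjusted p then lying between 0.0952 and 0.159 and the log2 fold change between -0.64 and -0.52, and it was also lost by limma-voom (adjusted p = 0.0753). The sums of adipocyte and muscle cell markers were also lower in both KO libraries, and their part in Gpc6 or in the other pathway genes was not tested.

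The heparan sulfate and carrier genes lay on both sides of 0. Of 19 listed and tested, Gpc6 included, 4 were higher and 3 lower at an unadjusted edgeR p under 0.05, with a median log2 fold change of -0.08, and the groups did not overlap in 11 of the 19, where the share over all tested genes was 48.2%. With TMM scaling and the low-count filter edgeR called none of the 19 besides Gpc6. With no filter Sdc4, Sulf1 and Fgfbp1 were called (edgeR adjusted p = 0.00393, 0.00452 and 0.0159), DESeq2 called these and Ext1, and library size alone gave an edgeR adjusted p of 0.0488 for Sdc4. The syndecan gene Sdc4 had 206 and 178 CPM in KO and 116 and 133 CPM in wild type (log2 fold change 0.62, SE 0.10, edgeR adjusted p = 0.0726). Sulf1, which encodes an enzyme that removes sulfate from heparan sulfate and so tunes FGF binding, had 582 and 518 CPM against 353 and 395 CPM (0.56 log2, SE 0.10, edgeR adjusted p = 0.0762). Hs2st1, a sulfotransferase gene, had a log2 fold change of 0.27. Fgfbp1, which encodes a carrier that frees FGFs from the matrix, had 0.724 and 0.622 CPM in KO and 3.81 and 2.22 CPM in wild type, from 25 and 19 counts against 136 and 99 (edgeR adjusted p = 0.104).

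Of the 15 other secreted ligand genes, 6 were tested and edgeR called 0, with 1 under an unadjusted p of 0.05. That gene, Fgf18, a ligand of bone and cartilage growth, had 15.5 and 13.3 CPM in KO and 7.01 and 9.47 CPM in wild type (0.81 log2, SE 0.19, edgeR adjusted p = 0.137), and it was called by DESeq2 (adjusted p = 0.0242) and by edgeR with no low-count filter (adjusted p = 0.0275). Fgf3, Fgf4, Fgf6, Fgf15 and Fgf20 were listed at 0 in every library. Of the 4 intracellular FGF homologous factors, 3 were tested and edgeR called 0, with 1 under an unadjusted p of 0.05. That gene, Fgf13, had 0.984 and 0.622 CPM against 3.62 and 2.46 CPM (edgeR adjusted p = 0.126), and it was called by DESeq2 (adjusted p = 0.00977) and by edgeR with no low-count filter (adjusted p = 0.0273).

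Of 7 other receptors and co-receptors, 6 were tested and edgeR called 0. At an unadjusted edgeR p under 0.05, 2 were higher and 2 lower, against 7.16% and 7.18% of all tested genes. Flrt2, a transmembrane protein gene whose family binds FGF receptors, had 172 and 198 CPM in KO and 143 and 130 CPM in wild type (0.44 log2, SE 0.09, edgeR adjusted p = 0.121, DESeq2 adjusted p = 0.00566, edgeR with no low-count filter adjusted p = 0.017), and its relative Flrt1 had 3.97 and 2.49 against 1.57 and 0.940 CPM. Fgfrl1, a receptor-like gene without the kinase domain, had 58.6 and 53.7 against 82.9 and 63.9 CPM (-0.39 log2, SE 0.14, edgeR adjusted p = 0.302). Klb, the co-receptor for Fgf21 and an adipocyte gene, had 3 and 0 counts in KO and 26 and 20 in wild type. In CPM its libraries had the order of the adipocyte, muscle cell and epithelial marker sums alike. The part of any of these cells in the Klb values was not tested.

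The cytoplasmic cascade had the smallest median absolute log2 fold change of the 7 lists, 0.07, where that over all tested genes was 0.15. Neither the lists nor the background were matched for count level, so the contrast does not show a steadier cascade. Of 19 adaptor and Ras-ERK genes edgeR and DESeq2 each called 0, with 2 under an unadjusted edgeR p of 0.05, and their fold changes ran from -0.27 to 0.17 log2 with a median of -0.02. The groups did not overlap in 8 of the 19 genes, where the share over all tested genes was 48.2%. Hras and Map2k2, a Ras gene and an ERK kinase kinase gene, had log2 fold changes of -0.27 and -0.15 (edgeR adjusted p = 0.26 and 0.345). They were named by a rule that asks for no overlap.

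Of 8 tested feedback inhibitors other than the Sprouty members, edgeR called 0, with 2 higher and 0 lower at an unadjusted p under 0.05. In CPM, 5 had both KO libraries above both wild-type libraries and 0 had both below, against 23.8% and 24.4% of all tested genes, while 3 overlapped, and the median log2 fold change was 0.29. Spred1, a Sprouty-related inhibitor of Raf activation, had 167 and 158 CPM in KO and 123 and 130 CPM in wild type (0.36 log2, SE 0.07, edgeR adjusted p = 0.0983), and it was called by DESeq2 (adjusted p = 0.00438) and by edgeR with no low-count filter (adjusted p = 0.0273). Spred3 had 23.4 and 23.2 CPM against 17.9 and 17.1 CPM (0.41 log2, SE 0.10, edgeR adjusted p = 0.15). Spry4 had its KO libraries on the lower side but was not called (edgeR adjusted p = 0.342), so a difference of direction among the feedback genes was not shown. The 9 ETS factor and ERK response genes had 0 calls by edgeR and by DESeq2, 2 under an unadjusted edgeR p of 0.05, and a median of -0.08 log2. Etv5, an ETS factor that FGF signalling induces, had 42.0 and 37.0 CPM in KO and 32.6 and 29.4 CPM in wild type (0.35 log2, SE 0.10, edgeR adjusted p = 0.2), and the cyclin gene Ccnd1 had 93.9 and 114 CPM against 133 and 132 CPM (-0.34 log2, SE 0.10, edgeR adjusted p = 0.217).

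**Figure D5:**
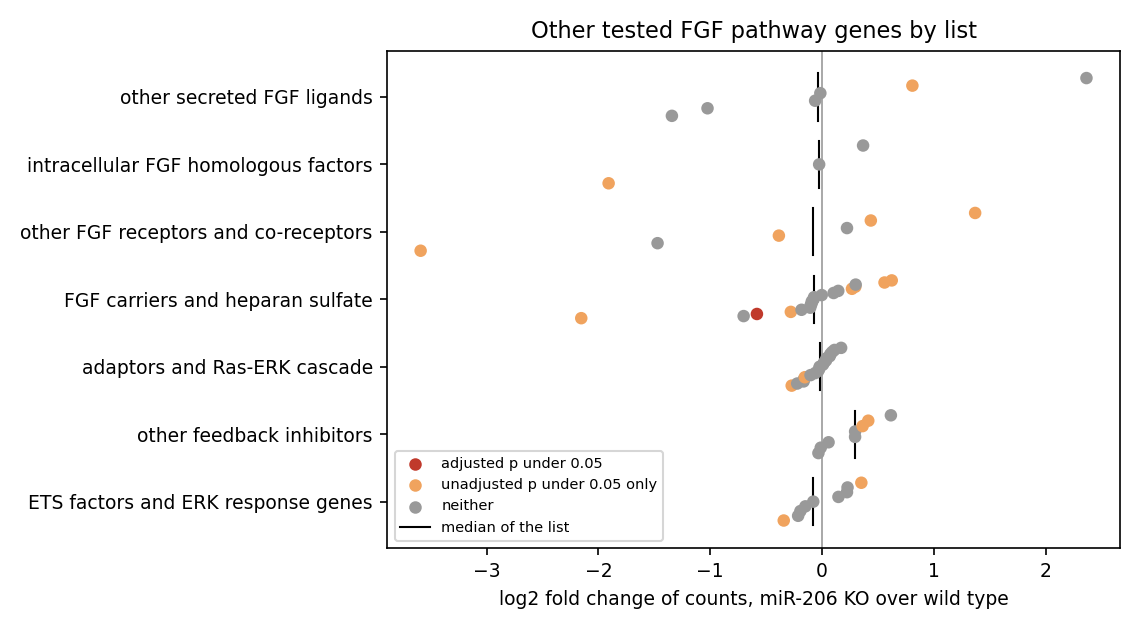
Log2 fold change of counts, KO over wild type, for the 70 tested pathway genes in 7 lists (1 point per gene; red, adjusted p under 0.05; orange, unadjusted p under 0.05; grey, neither; black bar, median of the list). Gpc6 is the red point at -0.58, the cascade genes lie between -0.27 and 0.17, and the leftmost point is Klb, which rests on 3 counts in KO.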

How the data were processed

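RNA-seq of cultured mouse FAPs gave 2 miR-206 KO and 2 wild-type libraries. Estimated counts and TPM per gene were deposited by the authors, with no other scaling of either recorded in the labels. FastQC, kallisto and the mm10 build appear in the submitters' processing notes. The sources used here do not give versions, annotation, strand setting or how transcripts were summed to genes. A further deposited sheet holds mean TPM per genotype, with means under 1 TPM written as 0, and the authors' log2 difference of those means. Spreadsheet dates stand in place of some gene names outside the FGF lists.

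After rounding of the estimated counts, genes were compared by edgeR 4.0.16 under R 4.3.3 (quasi-likelihood F-test, robust, TMM, filterByExpr, two-sided, threshold 0.05, Benjamini-Hochberg adjustment over 14507 genes). The standard error is the fold change over the square root of F, and intervals are unadjusted. The fit was checked on simulated counts. Alternatives used DESeq2 1.42.0, limma 3.58.1 (voom, or log2 of TPM plus 1 or 0.1), other scalings and filters, each library left out, and a replicate block. Chi-square per gene between replicates was 36.1 (KO) and 27.0 (wild type), far above sampling noise. Implied length is count over TPM, scaled by the median of genes with 1 transcript. Pathway genes were named if called, with up to 4 more per list by smallest unadjusted p under 0.05 with no overlap; Nudt6 and the 3 profiles nearest to Spry4 were added. Fgfr4 was named after its values were seen. Members, lists and rules were chosen with earlier results of these data known.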

Additional observations from a re-analysis of the deposited data

How the results depend on the processing

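No member was called under any of the 15 alternatives, where the lowest adjusted p of a member was 0.137 (Fgfr2, edgeR without wild type replicate 2), with Fgfr3 left untested by the filter of the log2(TPM + 1) and log2(TPM + 0.1) fits. Fold changes of Fgf2, Fgfr1, Fgfr2, Fgfr3, Spry1, Spry2 and Spry4 kept their sign under each alternative in which they were tested. Fgf7 was negative by limma on log2(TPM + 1) with and without a filter (-0.016) and on log2(TPM + 0.1) (-0.016), and ran from -0.15 to 0.25 with a library left out, and Fgf10 ran from -0.023 to 0.43. Calls of pathway genes numbered 2 with library size alone, 9 by DESeq2 (Fgfbp1, Fgf13, Gpc6, Spred1, Flrt2, Ext1, Sulf1, Sdc4 and Fgf18), 8 with no low-count filter, and 0 by limma-voom, without robust estimation, by the 3 TPM fits and without any 1 library. Calls over all genes numbered 133 with library size alone, 663 by DESeq2, 14 by limma-voom, 11 without robust estimation, 491 with no low-count filter, 6 on log2(TPM + 1), 4 on log2(TPM + 0.1), 4 on log2(TPM + 1) with no filter, and from 7 to 77 with a library left out. The cause of these changes was not tested.

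The titles give both genotypes the numbers 1 and 2, which nothing else ties to a shared animal or day, and the gaps between replicates 1 and 2 had a correlation of 0.187 between the genotypes across 14507 genes. With the replicate block 265 genes were called, 1 pathway gene and 0 members. A fit that leaves out a library has 1 library in a genotype, whose spread is assumed to be that of the other group, and it has less power. Library size alone moved the median fold change of all genes from -0.00 to -0.04 log2. Low counts limit the precision of Fgfr3, Fgfr4 and Klb.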
